A study of Mus musculus with 2 samples.

Results

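DNase I hypersensitive sites (DHS) at 10 integrin genes of leukocytes were examined in splenic B cells. The genes were chosen by name, from what is known of integrins in blood cells and not by a measured value, as 6 integrin genes used by B cells (Itgal, Itgb2, Itga4, Itgb1, Itgb7 and Itga6) and 4 taken for comparison that are better known from myeloid cells, dendritic cells, mucosal lymphocytes or platelets (Itgam, Itgax, Itgae and Itgb3). They are 10 of 22350 protein-coding genes on chromosomes 1 to 19 and X. For each gene the DHS that touched the gene body or the 50 kb on either side were collected, which gave 98 different DHS of the 47542 in the list. The cells came from spleens of 8 weeks old Trp53+/+ mice on the C57/Bl6 background that were mock treated, and were enriched with magnetic beads against B220. The data hold 1 DNaseI library and 1 input library, both of this same group, and only the DNaseI library has a peak list. The sources used here do not state whether these cells were pooled from several animals, and B220 is also carried by plasmacytoid dendritic cells. With 1 library there is no replicate check and no test is given, so every comparison is a description of this library. The sequencing depth is unknown, and where no DHS is given, none was called.

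Integrins are surface receptors made of 1 alpha and 1 beta chain, and they let leukocytes hold on to vessel walls, stroma and other cells. Itgal and Itgb2 form LFA-1, which binds ICAM proteins, and Itgb2 also pairs with Itgam (Mac-1 of myeloid cells) and with Itgax (CD11c of dendritic cells). Itga4 pairs with Itgb1 to bind VCAM-1 and fibronectin, or with Itgb7 to bind MAdCAM-1 on the vessels of gut lymphoid tissue. Itga6 with Itgb1 binds laminin, Itgae with Itgb7 binds E-cadherin, and Itgb3 pairs with Itga2b on platelets or with Itgav in many cells.

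Each DHS carries a score that the authors' peak caller gave it. Its scale is not stated, so it serves only to rank DHS within this list, where the lowest was 5.05, the median 32.65, the upper quartile 69.9 and the highest 619. A DHS counted as a promoter DHS of a gene when it reached into the 5 kb before or the 2 kb after one of the annotated transcription start sites (TSS) of that gene, which is the promoter window of the study. Positions are on mm9 and are counted from 1.

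As a check of the label, each of the 7 B cell marker genes reported here (Cd79a, Cd79b, Ms4a1, Pax5, Cr2, Cd22 and Blk) had a promoter DHS, with top scores from 83.97 to 265. Of 8 T cell markers 2 had one, Lck and Cd5, with top scores of 92.8 and 97.7, above the lowest of the B cell markers, 83.97 at Cd22. Of 8 myeloid markers 3 had one, Cd14, Elane and Emr1, with top scores from 41.05 to 51.05, while Lyz2, Csf1r, Mpo, Ly6g and S100a8 had none. Of 8 platelet and megakaryocyte markers 2 had one, Itga2b and Vwf, with scores of 22.7 and 43.7. Among all protein-coding genes 57.0% had a promoter DHS. The part of cells other than B cells in the DHS described below was not tested.

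Sequences of 6 regions in or in front of these genes are shown first, read from the mouse genome assembly NCBI build 37 (mm9). The start regions of 2 genes that hold the word GAGGAAGT bound by PU.1, and of 1 gene with the word GGGGCGGGG bound by Sp1, are given from 130 bases before the TSS to 20 bases from it on, in the direction of transcription. Capitals mark the words, in either orientation. The TSS used is the most upstream one of a protein-coding transcript.
Itgal start, chr7:134439644-134439793, plus strand: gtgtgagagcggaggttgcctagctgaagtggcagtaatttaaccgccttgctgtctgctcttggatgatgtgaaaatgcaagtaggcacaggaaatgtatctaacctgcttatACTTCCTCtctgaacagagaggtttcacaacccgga
Itgb7 start, chr15:102062347-102062496, minus strand: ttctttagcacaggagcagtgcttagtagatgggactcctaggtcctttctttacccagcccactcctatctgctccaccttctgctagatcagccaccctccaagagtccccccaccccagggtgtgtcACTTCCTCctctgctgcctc
Itga4 start, chr2:79095453-79095602, plus strand: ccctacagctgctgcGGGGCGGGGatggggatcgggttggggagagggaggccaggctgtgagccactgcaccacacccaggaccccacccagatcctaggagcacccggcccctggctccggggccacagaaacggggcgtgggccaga
The central 300 bases of 3 DHS that set the genes apart are shown next. They are the intronic DHS of Itgb7 with a score of 207, the intronic DHS of Itgax, which is the highest-scoring DHS in that gene, and the weak DHS in front of Itgam.
Itgb7 intron 2 DHS, chr15:102055229-102055528, minus strand: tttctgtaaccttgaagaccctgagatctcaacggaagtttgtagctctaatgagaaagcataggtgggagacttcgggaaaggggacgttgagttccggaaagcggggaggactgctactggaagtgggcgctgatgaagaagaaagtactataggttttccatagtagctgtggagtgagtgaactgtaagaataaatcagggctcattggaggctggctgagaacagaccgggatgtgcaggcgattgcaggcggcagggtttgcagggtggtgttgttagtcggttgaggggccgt
Itgax intron 8 DHS, chr7:135277208-135277507, plus strand: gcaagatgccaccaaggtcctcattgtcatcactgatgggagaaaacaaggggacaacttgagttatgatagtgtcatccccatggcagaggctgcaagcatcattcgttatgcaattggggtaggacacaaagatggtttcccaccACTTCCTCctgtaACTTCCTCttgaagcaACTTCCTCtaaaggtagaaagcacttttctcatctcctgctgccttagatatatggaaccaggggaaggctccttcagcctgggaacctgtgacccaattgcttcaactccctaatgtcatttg
Itgam promoter DHS, chr7:135205811-135206110, plus strand: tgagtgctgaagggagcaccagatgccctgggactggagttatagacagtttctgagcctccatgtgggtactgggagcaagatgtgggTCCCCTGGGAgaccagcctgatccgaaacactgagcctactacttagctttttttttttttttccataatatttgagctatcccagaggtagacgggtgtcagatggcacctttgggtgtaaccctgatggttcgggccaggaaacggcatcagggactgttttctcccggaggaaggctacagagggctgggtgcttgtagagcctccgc

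In total 8 words were searched on both strands: GAGGAAGT (PU.1), CCGGAAGT (Ets), TGTGGTTT (Runx), ATGCAAAT (octamer), AGATAAG for the factors of the Gata family, the palindromic EBF1 word, GGGGCGGGG (Sp1) and the longer CTCF word. The PU.1 and Ets words end in the same letters, so they are not independent. In the 300 bases around the TSS, 250 before and 50 from it on, the PU.1 word was present in Itgal, where it starts 16 bases before the TSS, and in Itgb7, where it takes up the first bases of the transcript. These are 2 of the 10 genes, against 3.13% of all 22350 promoters of the same length. The Sp1 word was present in Itga4 and in Itga6, against 15% of all promoters. The Gata word was present in Itgae, against 2.72%. The other 5 genes (Itgb2, Itgb1, Itgam, Itgax and Itgb3) held none of the 8 words there, and 27.6% of all promoters held at least 1. Among the central 300 bases of the 98 DHS, 19 held at least 1 word (19.4%, against 17% of all 47474 DHS on chromosomes 1 to 19 and X), a share near the background. The EBF1 word was in 5 of the 98 (5.1%, against 1.23%). They include the strongest promoter DHS of Itga4, of Itga6 and of the comparison gene Itgam. The others lay in intron 1 of Itgb7 (score 7.89) and intron 25 of Itga6 (22.68), both below the median score of the list. This excess was the largest among the 8 words, rests on 5 DHS and was not tested. EBF1 is a factor known to set up the B cell programme, and a link of these matches to it was not tested. The other words were in 4.08% (PU.1, against 3.61%), 4.08% (Sp1, against 3.83%), 3.06% (Runx, against 2.51%), 2.04% (octamer, against 1.64%) and 1.02% (Gata, against 3.14%) of the 98, and the Ets and CTCF words were in 0, against 1.68% and 0.626%. A match is a stretch of letters and was not measured as a bound site.

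The DHS in intron 8 of Itgax held the PU.1 word 3 times within its centre, all in the same orientation. Only 5 of the 47474 DHS centres held 3 or more, or 0.011%. This DHS was singled out after its values were seen. Of the 300 bases shown, 121 are coding. The weak DHS in front of Itgam held 1 EBF1 word, and the strong intronic DHS of Itgb7 held none of the 8 words.

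The promoters were examined first. All 6 B cell integrin genes had a promoter DHS, against 2 of the 4 comparison genes (Itgb3 and Itgam) and 57.0% of all protein-coding genes. Both groups are too small for these shares to be more than a description. The top promoter score was 216 at Itga4, 106 at Itgb1, 60.8 at Itgal, 46.5 at Itga6, 24.3 at Itgb7 and 24.1 at Itgb2. In the comparison genes it was 88.3 at Itgb3 and 18.2 at Itgam, and no promoter DHS was called at Itgax or Itgae. Counting genes without a DHS as 0, the score of Itga4 was at or above that of 94.1% of all protein-coding genes, Itgb1 of 73.2%, Itgb3 of 66.8%, Itgal of 57.7%, Itga6 of 53.6%, Itgb7 and Itgb2 of 47.5% and Itgam of 45.8%. Itgax and Itgae, at 0, stood at 43% on this scale, so 47.5% and 45.8% are low places among genes with a promoter DHS. The groups overlapped, since Itgb3 stood above 4 of the 6 B cell genes. On the same footing, the median was 53.6 in the B cell genes, 9.08 in the comparison genes and 33.5 over all protein-coding genes. Over the genes with a promoter DHS alone it was 53.6 in the 6 B cell genes and 53.2 in Itgb3 and Itgam. The latter is only the midpoint of 2 unlike scores, 88.3 and 18.2, so it cannot show where the gap between the groups comes from. The comparison median was 0 with only the DHS that reached the median score of the list, 0 where a DHS had to cover a TSS, and 18.2 without Itgb2 and Itgae, against 53.6, 42.4 and 60.8 in the B cell genes.

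A DHS lay within 1 kb of a TSS in the same 6 and 2 genes, with a background of 53.7%. A DHS covered a TSS in 5 of 6 and 1 of 4 genes, with a background of 46.6%. Of the 4 genes without one, 2 had a DHS close by. At Itgb7 the DHS ended 48 bp short of the only annotated TSS, and at Itgam 7 bp short of the first. The nearest DHS was 3756 bp from a TSS at Itgax and 5652 bp at Itgae. Itga6 counts as covered only through an internal TSS, and its DHS of scores 46.5 and 28.9 lay on either side of the main group of TSSs, 106 and 79 bp away. A promoter DHS at or above the median score of the list was present in 4 of 6 and 1 of 4 genes, with a background of 50.3%.

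**Figure D1:**
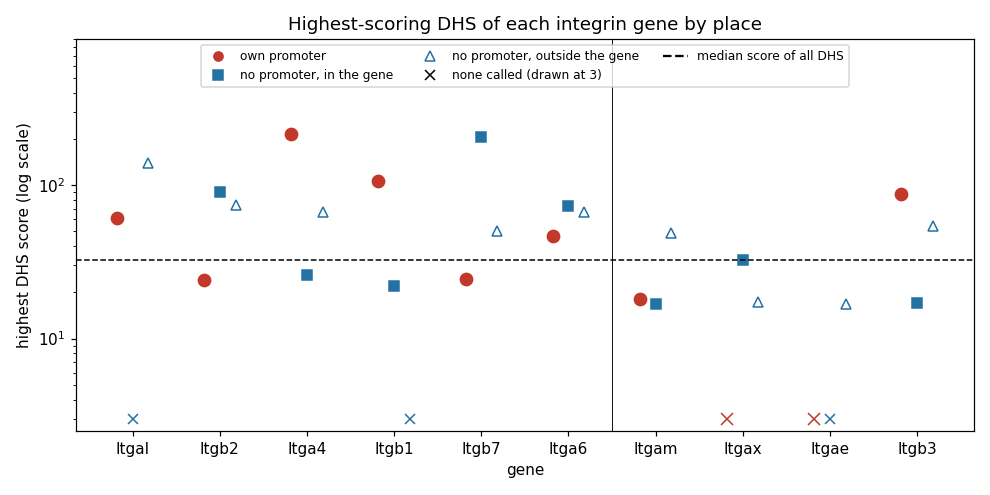
For each gene on the horizontal axis, the highest score (log axis) of a DHS at its own promoter (circles), of a DHS at no annotated promoter inside the gene (squares) and of a DHS at no annotated promoter in the rest of the window (triangles); crosses mark places where none was called. Itga4, Itgb1 and Itgb3 peak at the promoter, and Itgb2, Itgb7, Itga6 and Itgax inside the gene. Itgal, Itgam and Itgae peak in the rest of the window, and Itgax and Itgae have no promoter DHS.

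Base composition divided the genes in another way than the contrast. Promoters were counted as CpG-rich if the 1000 bases around the TSS were at least 55% G or C and held at least 0.6 times the CpG dinucleotides that their C and G content gives by chance, a measure called the CpG ratio here. Itgb1, Itga6 and Itgb3 had such promoters, with CpG ratios of 0.93, 0.883 and 0.661, and all 3 had a promoter DHS, as did 85.5% of the 8698 genes of this kind. The other 7 genes had ratios from 0.158 at Itgae to 0.465 at Itga4. Of these 7, Itgal, Itgb2, Itga4, Itgb7 and Itgam had a promoter DHS and Itgax and Itgae had none, against 38.9% of the 13652 genes with such promoters. The comparison gene with the strongest promoter DHS, Itgb3, was thus the only CpG-rich one among the 4.

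The alpha chains of B cells came next. Itgal (ENSMUSG00000030830.11, chr7:134439774-134478651, plus strand) encodes the alpha chain of LFA-1 and is 38.9 kb long. Its promoter DHS, chr7:134439444-134440651, was 1208 bp wide, covered the TSS and scored 60.8, at percentile 71 of the list. A second DHS of its own, with a score of 21.7, lay in intron 11 next to an internal TSS. Apart from these, Itgal had no DHS in its body. The highest score in its window was 139, at chr7:134396891-134398589, which overlapped no promoter but lay 42.0 kb upstream, inside the gene Zfp771. Of the 14 DHS of the window 10 lay at promoters of other genes (Dctpp1, Sephs2, Gm17511, Zfp768 and Zfp747), so the window count is mainly one of its neighbours.

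Itga4 (ENSMUSG00000027009.11, chr2:79095583-79173280, plus strand), the alpha chain shared by the receptors for VCAM-1 and MAdCAM-1, had the strongest promoter of the 10 genes. The DHS at chr2:79094530-79097223 was 2694 bp wide and scored 216, at percentile 97.2. It was flanked on both sides by weaker promoter DHS with scores of 13.19, 19.02 and 36.94, and 3 more followed in intron 3, at 10.18, 17.55 and 26.03. Away from promoters the highest was a DHS 27.1 kb upstream with a score of 66.8, whose nearest TSS was that of Itga4. All DHS inside the 77.7 kb gene were thus near its start, the last being centred 10.2 kb from the TSS. The remaining 2 of the 10 DHS in the window lay at the promoter of Cerkl.

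Itga6 (ENSMUSG00000027111.8, chr2:71583673-71696473, plus strand), the alpha chain of a laminin receptor, is the longest of the 10 genes as annotated, at 112.8 kb, and the most upstream of its TSSs belongs to a transcript without coding sequence. It had 10 DHS centred in its body, more than any other member. Its promoter DHS scored 46.5 and 28.9 around the main TSSs, and 25.3 and 22.0 around an internal TSS at exon 13. A further one, with a score of 14.3, ended 735 bp before the most upstream TSS and also overlapped the promoter of Gm13663. The highest scores inside the gene lay away from promoters, in introns 2 and 3, at 57.6, 59.5 and 73.4 within a stretch from 25.8 to 29.9 kb downstream of the TSS. These 3 stood above the promoter DHS of the gene, while the other intronic DHS away from promoters scored 8.26 in intron 2 and 14.95 and 22.68 in intron 25. At Itgb2 and Itgb7 too the highest intronic DHS stood above the promoter. The highest DHS of the window, at 194, was the promoter of Pdk1.

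Among the beta chains, Itgb2 (ENSMUSG00000000290.7, chr10:76992997-77028453, plus strand), the partner of Itgal, Itgam and Itgax, had a wide but low promoter DHS. It spanned 1293 bp over the TSS, chr10:76992592-76993884, with a score of 24.1, at percentile 38.1. A DHS in intron 1, chr10:76999298-77000540, scored 90.8 and was centred 6.9 kb downstream of the TSS. Another, chr10:77029036-77030104, lay just past the 3′ end of the gene and scored 73.9. Both stood above the promoter DHS of the gene. The highest scores of the window, 196 at Sumo3 and 182 at Pttg1ip, were at promoters of neighbours.

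Itgb7 (ENSMUSG00000001281.3, chr15:102046426-102062366, minus strand), the partner of Itga4 in gut homing, is the shortest of the 10 genes, at 15.9 kb. The DHS next to its TSS scored 24.3 and was 378 bp wide, and another in intron 1 scored 7.89. The DHS in intron 2, chr15:102054564-102056194, was 1631 bp wide and scored 207, at percentile 96.9, the highest DHS of its window and the highest among the 44 DHS of all windows that overlapped no annotated promoter. It was centred 7.0 kb downstream of the only annotated TSS. Upstream, a DHS with a score of 43.0 lay between Itgb7 and the promoters of Rarg, inside the annotated body of Rarg. Itgb7 had 1.88 DHS per 10 kb of gene body, the highest density of the 10 genes.

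Itgb1 (ENSMUSG00000025809.8, chr8:131209554-131257100, plus strand), the beta chain found on most cell types, had the fewest DHS. Its promoter DHS, chr8:131208652-131210628, covered the TSS with 1977 bp and a score of 106, at percentile 85.9. The only other DHS of the window lay in intron 3, with a score of 22.2. The next DHS at lower coordinates was 90 kb from the gene, and none was called between the gene and the end of the assembled chromosome. A strong promoter DHS and a window with few DHS thus occurred together at this gene.

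**Figure D2:**
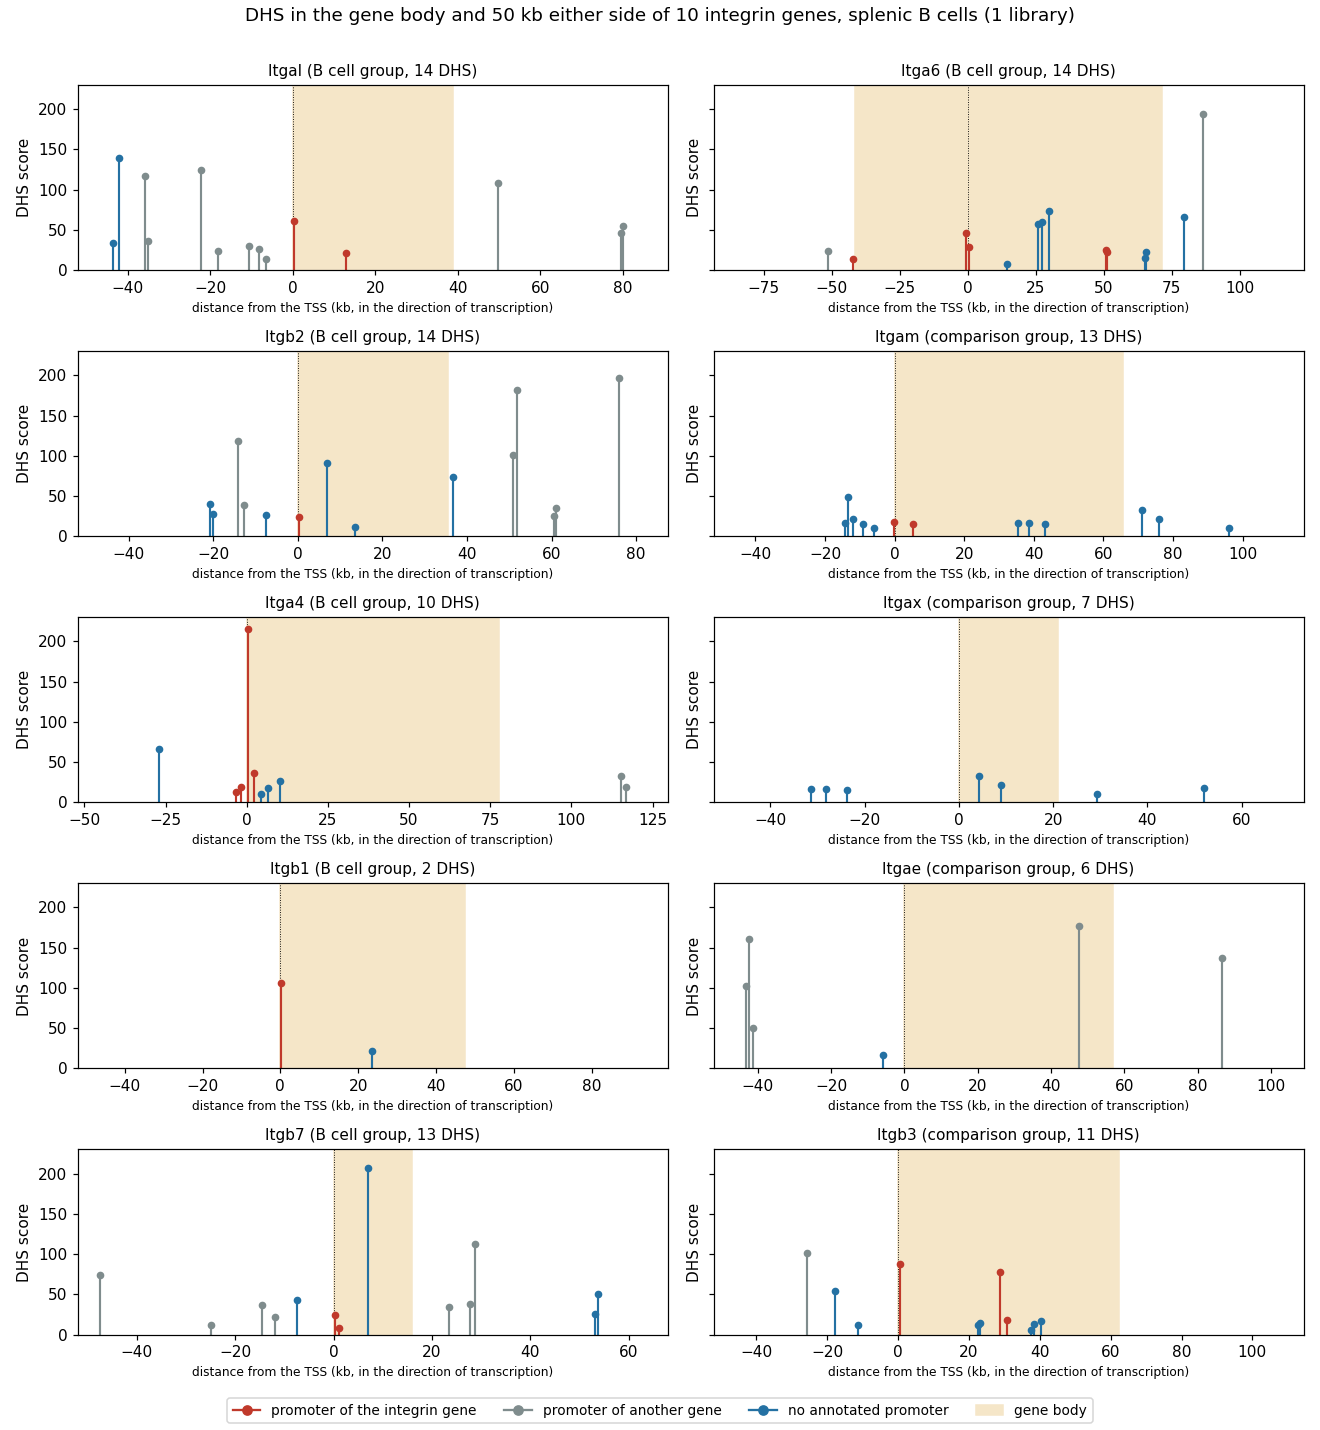
Each panel shows 1 gene, with the distance of every DHS from the TSS in kb on the horizontal axis and its score on the vertical axis; colours give the promoter a DHS overlaps and the shaded band is the gene body. The 13 DHS of Itgam and the 7 of Itgax all score below 50, while the 2 DHS of Itgb1 stand alone in their window.

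The comparison genes differed among themselves. Itgam (ENSMUSG00000030786.11, chr7:135206154-135271674, plus strand) encodes the alpha chain of Mac-1, known from granulocytes, monocytes and macrophages. The DHS in front of it, chr7:135205775-135206147, was 373 bp wide and scored 18.2, at percentile 25.8, and it also touched the promoter of an annotated U1 snRNA gene. A second DHS, with a score of 15.3, lay in intron 2. A row of 5 DHS lay from 14.2 to 5.9 kb upstream, the highest with a score of 48.8 at chr7:135192316-135193126. Of the 13 DHS in the window that one alone reached the median score of the list. The window was nearly as full as those of Itgal and Itgb2 but its DHS were lower and narrower, with a median score of 16.55 and a median width of 410 bp.

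Itgax (ENSMUSG00000030789.7, chr7:135273061-135294171, plus strand), the alpha chain CD11c, had no promoter DHS. Its highest was the one in intron 8 shown above, chr7:135276838-135277879, with a score of 32.5, and a second in intron 14 scored 21.5. The windows of Itgam and Itgax share 6 DHS, since the genes are neighbours, and these are counted for both. From the start of Itgam to the end of Itgad, the next alpha chain gene (chr7:135206154-135349015, 142.9 kb), 8 DHS were called, with scores from 10.7 to 32.5, all below the median of the list. Itgal lies 728 kb away on the same chromosome.

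Itgae (ENSMUSG00000005947.5, chr11:72904085-72960948, plus strand), the alpha chain that binds E-cadherin, had no promoter DHS, and 1 DHS 5.9 kb upstream with a score of 16.75. The only DHS inside the gene, in intron 26 with a score of 177, overlapped the promoter of Gsg2, a gene that lies within Itgae and encodes the mitotic kinase haspin. The other 4 DHS of the window lay at promoters of 1200014J11Rik, Tax1bp3 and Tmem93. Once DHS at promoters of other genes were left aside, Itgae thus had 1 DHS.

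Itgb3 (ENSMUSG00000020689.3, chr11:104469370-104531790, plus strand), the beta chain of the platelet fibrinogen receptor, differed from the other comparison genes. Its promoter DHS, chr11:104468706-104471257, covered the TSS with 2552 bp and scored 88.3, at percentile 81.2. A second, chr11:104497388-104499035, covered an internal TSS in intron 4 and scored 77.3. Further DHS in introns 2, 6 and 10 scored from 5.79 to 17.9, and one 17.7 kb upstream, inside Myl4, scored 54.4. With 8 DHS centred in its body and a top promoter score above those of Itgal, Itga6, Itgb7 and Itgb2, Itgb3 fell among the B cell genes in these measures. Its alpha partner on platelets, Itga2b, had 2 promoter DHS, the higher with a score of 22.7, that covered no TSS, and its other partner, Itgav, had one with a score of 137.

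Over the whole windows, the number of DHS was 14 at Itgal, Itgb2 and Itga6, 13 at Itgb7, 10 at Itga4 and 2 at Itgb1. In the comparison genes it was 13 at Itgam, 11 at Itgb3, 7 at Itgax and 6 at Itgae. The medians were 13.5 and 9, against 5 over all protein-coding genes, and 5 of 6 and 2 of 4 genes had at least 10 DHS, as did 22.6% of all protein-coding genes. The ranges of both groups overlapped, and the order of the medians turned under 2 other settings. Without DHS at promoters of other genes they were 6.5 in the B cell genes and 8.5 in the comparison genes, and with flanks of 100 kb they were 15.5 and 16.5. The order stayed with flanks of 20 kb, at 8 and 6.5, and with only the DHS that reached the median score, at 7 and 2.5. Of the 98 different DHS, 34 lay at promoters of other genes only. Gene bodies ranged from 15.9 to 112.8 kb, so windows differed in length. DHS centred in the gene body were therefore also given per 10 kb. This density still counts promoters of other genes, and the 1 DHS inside Itgae lay at that of Gsg2. This density was 0.421 to 1.88 in the B cell genes (median 0.745) and 0.176 to 1.28 in the comparison genes (median 0.779) when all DHS were counted. With only the DHS that reached the median score of the list, the medians were 0.27 and 0.0879. With merged peaks they were 0.523 and 0.779, and without Itgb2 and Itgae 0.644 and 0.947. By this density 55.2% of all protein-coding genes lay at or below Itgae, the lowest of the 10, and 91% at or below Itgb7.

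**Figure D3:**
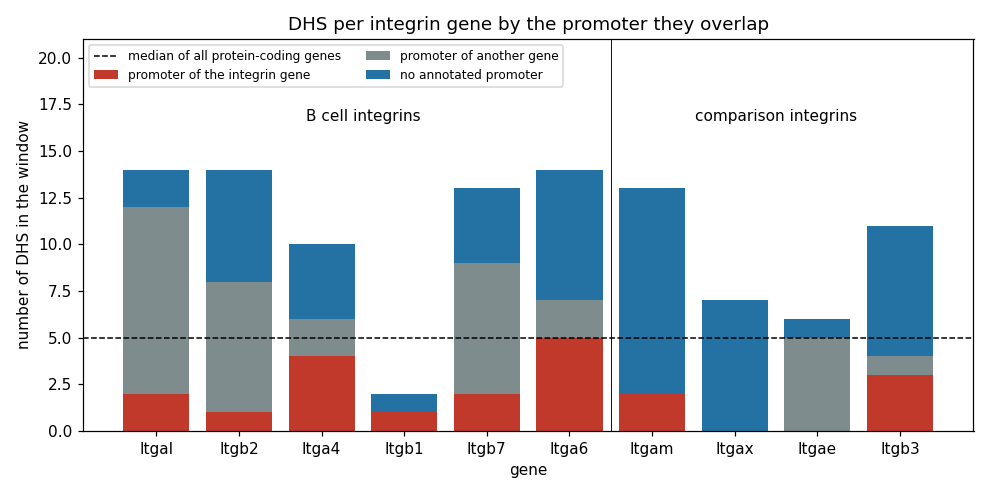
Bars give the number of DHS in the window of each gene (vertical axis), divided by whether they overlap a promoter of the gene, a promoter of another gene or none; the dashed line is the median of 5 over all protein-coding genes. DHS shared by the windows of Itgam and Itgax are drawn in both bars. At Itgal 10 of 14 DHS belong to promoters of other genes.

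The scores of the DHS were compared next. The median score of a window was 64.1 at Itgb1, 41.4 at Itgal, 39.5 at Itgb2, 37.3 at Itgb7, 27.1 at Itga6 and 22.5 at Itga4. It was 17.1 at Itgb3, 16.8 at Itgax and 16.55 at Itgam, but 119.9 at Itgae, the highest of the 10, where 5 of the 6 DHS lay at promoters of other genes. Of the 67 different DHS in the windows of B cell genes, 36 reached the median score of the list, and their median score was 34.65. Of the 31 in the comparison windows 10 did, with a median of 17.4. The DHS that overlapped no annotated promoter had a median score of 37.2 in the B cell windows (24 DHS) and of 16.3 in the comparison windows (20 DHS), against 24.3 over all 24945 DHS of this kind. Of these 20, 12 came from the adjacent windows of Itgam and Itgax, so the comparison value rests largely on 1 neighbourhood. Their median widths were 715 and 406 bp. DHS at promoters of other genes went the other way, with medians of 37.7 (28 DHS) and 119.9 (6 DHS). DHS of 1 window are not independent, and no test of these differences was made. The next DHS beyond the limit of 50 kb were at 50.6 and 51.1 kb from Itgae and at 51.4 and 51.5 kb from Itgal, and they were not counted.

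The other integrin genes were examined next. Of 17 further alpha and beta chain genes 12 had a promoter DHS (70.6%, against 57.0% of all protein-coding genes), and the 5 without one were Itga10, Itga11, Itgad, Itgb6 and Itgb2l. The highest scores were 137 at Itgav, 54.1 at Itga5, the alpha chain of the main fibronectin receptor, and 51.4 at Itga8. The median of the 12 was 40.1, against 53.6 for the 6 B cell genes and 101 for all 12747 protein-coding genes with a promoter DHS. Integrin promoters with a DHS thus had a lower median score than promoters at large, in the B cell group too. Of the 12747 genes 7438 had CpG-rich promoters, as did 2 of the 6 B cell genes and 7 of the 17 others. The part of base composition in the lower scores was not tested. Itga9 had 22 DHS centred in its body, the most of the 17, but per 10 kb of its long gene body this was 0.748, below 2.67 at Itga5, 1.19 at Itga2b, 1.06 at Itga10 and 0.89 at Itgb4. At Itga9 the top promoter score was 47.7. Itgb6, a chain of epithelia, had 0 DHS in its whole window.

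Most genes that switch integrins on or off had a promoter DHS. Of 13 activators 12 had a promoter DHS, with a median score of 149, against 57.0% of all protein-coding genes and a median of 101 for those of them with one. Promoters of 8 of the 13 activators and of 3 of the 6 inhibitors were CpG-rich, a class in which 85.5% of all genes had a promoter DHS. The highest was 431 at Apbb1ip (RIAM, which brings talin to the membrane), at percentile 99.8 of the list, followed by 215 at Rassf5 (RAPL, a partner of LFA-1) and 212 at Vcl (vinculin). Tln1 (talin) had 129, Rasgrp2, an exchange factor for Rap1, had 164, and Fermt3 (kindlin-3 of blood cells) had 83.85. The exception was Skap1, an adaptor best known from T cells, without a promoter DHS, while its relative Skap2 had one with a score of 122. Fyb, the adaptor ADAP that works with Skap1, had a score of 17.5. All 6 inhibitors or negative regulators (Sharpin, Itgb1bp1, Sipa1, Cytip, Flna and Rasa3) had one, with a median of 209, although the top DHS at Sharpin and Itgb1bp1 were centred nearer to the TSSs of the neighbours Maf1 and Cpsf3.

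Of 15 ligand genes 7 had a promoter DHS (46.7%, against 57.0% of all protein-coding genes). They were the ICAM genes Icam1 (200), Icam5 (168) and Icam2 (81.4), with top scores in parentheses, and Vtn (103), Madcam1 (23.1), Lama5 (18.05) and F11r (16.7). The top DHS at Vtn was centred 47 bp from the TSS of its neighbour Sarm1. The LFA-1 ligands Icam1 and Icam2 had their top DHS nearest to their own TSSs. No promoter DHS was called at Vcam1, Fn1, Cdh1, Fga, Fgb, Fgg, Lama1 or Spp1, which include the ligands bound by Itga4 with Itgb1 and by Itgae with Itgb7.

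**Figure D4:**
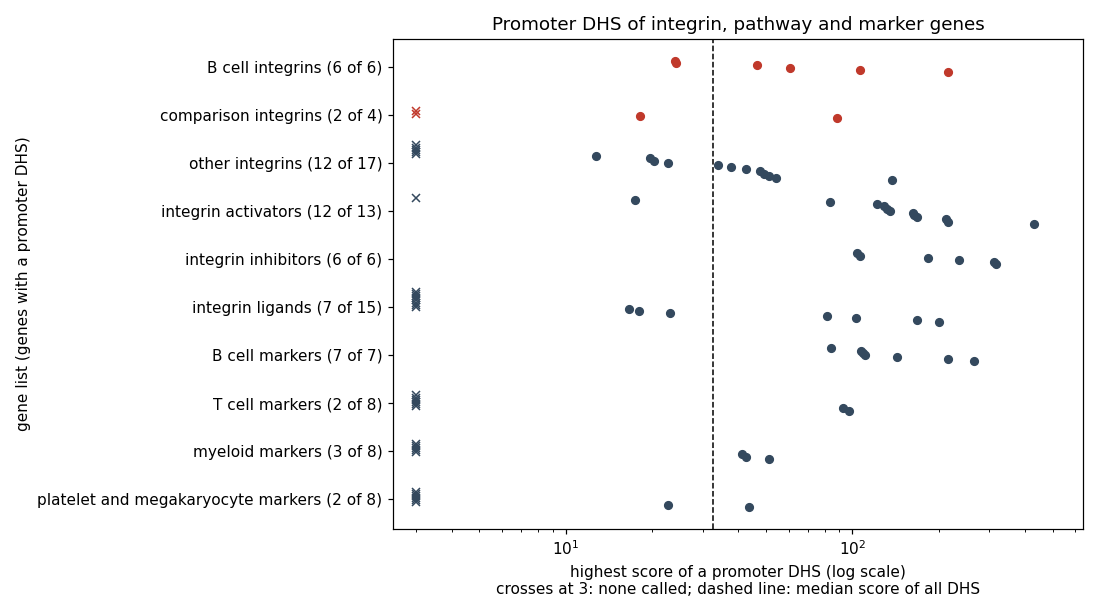
Each point is 1 gene, placed by the highest score of its promoter DHS on a log axis; crosses mark genes without one and the numbers beside each list give the genes with a promoter DHS. The activators and inhibitors lie mostly above the integrin genes themselves, and the 7 B cell markers shown lie above the dashed median of 32.65.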

How the data were processed

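Per the labels, the processing notes of the submitters name BWA 0.6.2, SAMtools and mm9. The deposited file holds 1 peak list of the DNaseI library, with a position, a peak name of the MACS caller and a score per peak. The paper gives a MACS version and a p-value limit for its ChIP-seq data. For this DNaseI list, the version and settings of the caller and the use of the input library are not given in the sources used here. Genes and TSSs were those of GENCODE M1 on NCBI build 37. All peak ends lay inside its chromosomes except 1 on chromosome 19. Peaks were assigned by an overlap of at least 1 bp. Exon and intron numbers follow the transcript with the longest coding sequence. Python 3.11.15 and numpy 2.4.6 were used, and overlaps, merging and word search were checked on planted peaks and words.

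The members and lists were drawn from general knowledge, with earlier results of these data known. All 10 members are named, each with its highest promoter DHS and its highest DHS at no promoter. Of every other list those with or those without a promoter DHS are named, whichever are fewer, and further names were chosen after their values were seen. The alternatives were a score threshold, merged peaks, the peak centre, other windows and TSS sets, and the contrast without Itgb2 and Itgae. A marker gene and a start region of these lists are not reported here.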

Additional observations from a re-analysis of the deposited data

How the results depend on the processing

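Of 80 values recomputed under alternatives, 65 stayed within 1.5 times the reported one. Settings differed in this: merged peaks kept 13 of 13 values in that range and the peak centre 11 of 11. The score threshold kept 5 of 13, and leaving out DHS at promoters of other genes kept 1 of 3. The setting that a DHS must cover a TSS was chosen after seeing the data. When only DHS that reached the median score were kept, there were 46 DHS in the windows. A promoter DHS was then left at 4 B cell genes, 1 comparison gene, 8 other integrin genes and 4 ligands. The falls from 6 to 4 B cell genes and from 12 to 8 other integrin genes count as within 1.5 times. The median top promoter score of the comparison genes was 0. Medians were 7 (B cell) and 2.5 (comparison) DHS per window, and 0.27 (B cell) and 0.0879 (comparison) DHS per 10 kb of gene body. The similar median densities of both groups thus did not hold for the higher-scoring DHS. With merged peaks the median densities were 0.523 (B cell) and 0.779 (comparison). Without Itgb2 and Itgae they were 0.644 and 0.947, again with the comparison genes higher. Without DHS at promoters of other genes 64 DHS remained, with medians of 6.5 (B cell) and 8.5 (comparison) per window, the reverse of the order of 13.5 and 9 in the report. Flanks of 20 kb gave medians of 8 (B cell) and 6.5 (comparison), and flanks of 100 kb gave 15.5 and 16.5, which also turned the order. Without Itgb2 and Itgae the median top promoter score of the comparison genes was 18.2. Where a DHS had to cover a TSS, it was 0 and 1 comparison gene was left. The cause of these changes was not tested beyond what each setting removes by construction. The unknown depth limits every statement on absent DHS. No paired analysis was possible because there is 1 library with a peak list.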

Other observations

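Cyth1 and Cytip, whose products (cytohesin-1 and its binding partner) act on the adhesion of LFA-1, carried many DHS. Cyth1 had 41 DHS in its window and 15 at its promoters, the highest with a score of 168, and Cytip had 14 and 6, the highest with a score of 235. Both genes were picked from their lists after their values were seen. The median over all protein-coding genes was 5 DHS per window.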
